A study of Mus musculus with 8 samples.

Results

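The 10 genes described here encode proteins that keep TGF-β latent in the matrix, receive it at the cell surface and pass its signal on, together with a corneal matrix protein that TGF-β induces. They are the latent TGF-β binding proteins Ltbp1, Ltbp2, Ltbp3 and Ltbp4, the receptors Tgfbr1, Tgfbr2 and Tgfbr3, the signal proteins Smad3 and Smad7, and Tgfbi. The list is one of names and its rule uses no measured value, though it was drawn up with earlier results of these data known, and all 10 were found among the 23420 named genes of the deposited table. The limbal rim, the strip around the cornea that borders the sclera and holds the epithelial stem cells of the cornea, was compared with the corneal button, the cornea inside that ring. Both tissues came from 8-week-old wild type C57BL/6J mice that had received no treatment named in the labels, and the rims and the buttons of all eyes were each pooled before RNA extraction. The labels list 4 samples per tissue, numbered L001 to L004 as sequencing lanes also are, but the deposited table holds no value for any one of them and its means are built from 1 library per tissue. No difference between the tissues therefore has a replicate check, and the spread between animals is not known.

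TGF-β is secreted bound to its own propeptide, and in many cells this small latent complex is joined by a disulfide bond to a latent TGF-β binding protein, which carries it to fibrillin and fibronectin fibers. Integrins, proteases and thrombospondin-1 free the growth factor, which binds TGFBR2. TGFBR2 then recruits and phosphorylates the kinase TGFBR1, while TGFBR3, also called betaglycan, presents the ligand without a kinase of its own. TGFBR1 phosphorylates SMAD2 and SMAD3, which enter the nucleus with SMAD4, and SMAD7 is an induced inhibitor that blocks TGFBR1. In the cornea the pathway is known for its part in stromal scarring, in epithelial growth control and in the dystrophies caused by altered TGFBI protein.

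Each read number given here is a derived value. The deposited mean of each of the 10 genes allows between 3 and 499 pairs of read numbers, and the split between the tissues rests on the authors' shrunken fold change and its error, which were used to choose the pair. Named genes took 26104317 reads of the cornea library and 21182025 of the limbus library. Reads were divided by a size factor per library (1.03 for the cornea and 0.967 for the limbus) to give normalized reads, and each ratio is limbus over cornea. The 95% confidence interval (CI) of a ratio is exact (Clopper-Pearson) and covers counting error alone, and since the amplified reads carry no molecular identifier, they need not be separate molecules. A difference is called beyond counting error where this interval excludes equal levels. The header of the table names neither tissue as the numerator of its fold change, so the direction follows the order in which the tissues are named, cornea against limbus. The markers of the corneal epithelium bear on it: Krt12, the keratin of differentiated corneal epithelium, had 1137735 reads in the library taken as cornea and 233324 in the library taken as limbus.

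The 10 genes did not share a direction. Of the 9 with over 3 reads in each library, 6 were limbal (higher in the limbus beyond counting error) and 3 corneal. Among all 13862 genes with over 3 reads in each library, 33.2% were limbal and 40.6% corneal by this measure. At least 2-fold differences were found for 4 of the 9 toward the limbus and 2 of the 9 toward the cornea, against 15.5% and 8.99% of all genes tested. The median log2 ratio was 0.49 over the 9 genes, 0.86 over all 10 with Ltbp2 at its ratio, and -0.05 over all genes tested. After scaling to total reads in place of size factors, every log2 ratio was higher by 0.21, the share of all genes on the limbal side was 58.9% in place of 46.6%, and 45.1% were limbal and 29.7% corneal beyond counting error. The counts of 6 and 3 for the tested genes were the same under that scaling. In bulk tissue, fewer cells of a type and less RNA per cell cannot be told apart.

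**Figure D1:**
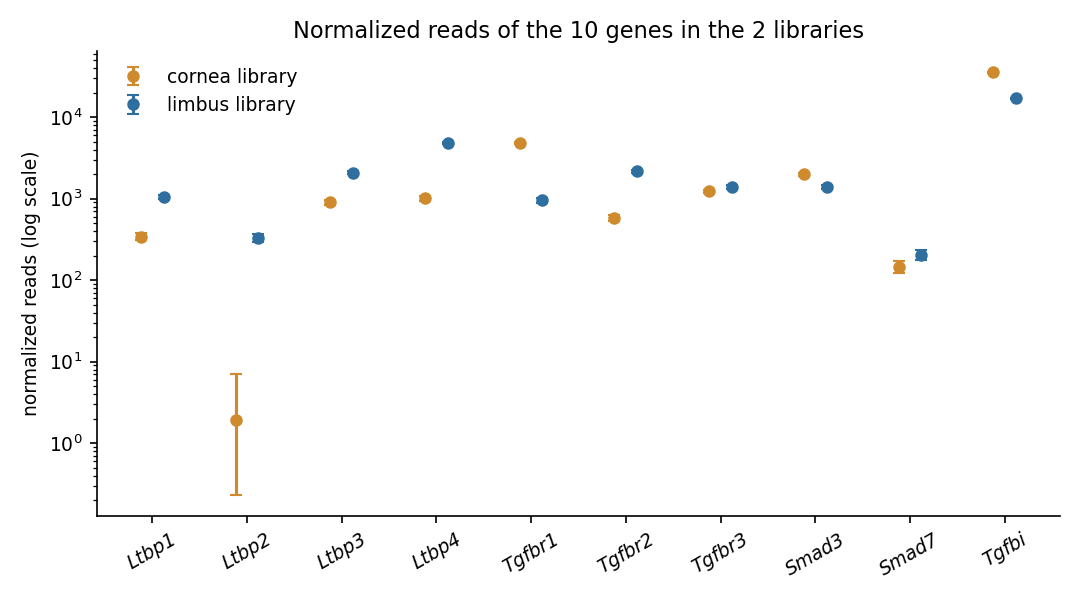
Normalized reads (log scale) of each of the 10 genes in the cornea library (orange) and the limbus library (blue); points are values of 1 library and bars are exact 95% intervals of the count, covering counting error only. The 4 Ltbp genes and Tgfbr2 lie higher in the limbus, Tgfbr1 and Tgfbi lie higher in the cornea, and the point of Ltbp2 in the cornea stands on 2 reads.

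The promoters of the genes that stood furthest apart are printed to show what lies before their starts, since Ltbp2 and Ltbp4 were the most limbal and Tgfbr1 and Tgfbi the most corneal of the 10. RefSeq promoters of GRCm38.p6 were matched for 8 of the 10 genes by symbol, and Smad7 and Tgfbr3 are named without one. The 250 bases before the RefSeq start are given 5′ to 3′ on the strand of the gene. For Ltbp2, Ltbp4 and Tgfbi this start lies inside the gene bounds given below, which are from GENCODE. Part of each of these windows is thus within the gene by those bounds. Capitals mark CAGAC (or GTCTG on the other strand), the core of the SMAD binding element, and GGGCGG (or CCGCCC), the core of the GC box that SP1 binds.
Ltbp2 (chr12:84876492-84876741, minus strand): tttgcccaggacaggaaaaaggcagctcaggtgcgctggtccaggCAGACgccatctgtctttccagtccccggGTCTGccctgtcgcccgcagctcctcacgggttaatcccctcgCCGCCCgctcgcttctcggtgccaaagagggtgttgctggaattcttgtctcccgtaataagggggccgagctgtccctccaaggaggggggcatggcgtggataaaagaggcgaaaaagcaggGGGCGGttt
Ltbp4 (chr7:27337613-27337862, minus strand): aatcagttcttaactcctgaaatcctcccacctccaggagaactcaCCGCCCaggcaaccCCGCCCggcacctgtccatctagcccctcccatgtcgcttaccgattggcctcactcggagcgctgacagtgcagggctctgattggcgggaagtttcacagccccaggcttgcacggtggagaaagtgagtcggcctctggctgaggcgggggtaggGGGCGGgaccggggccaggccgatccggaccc
Tgfbr1 (chr4:47352972-47353221, plus strand): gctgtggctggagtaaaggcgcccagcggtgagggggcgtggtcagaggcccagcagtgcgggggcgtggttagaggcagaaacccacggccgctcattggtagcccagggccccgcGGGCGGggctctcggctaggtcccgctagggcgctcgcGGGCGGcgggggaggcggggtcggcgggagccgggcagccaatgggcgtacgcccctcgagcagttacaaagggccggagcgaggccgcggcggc
Tgfbi (chr13:56609336-56609585, plus strand): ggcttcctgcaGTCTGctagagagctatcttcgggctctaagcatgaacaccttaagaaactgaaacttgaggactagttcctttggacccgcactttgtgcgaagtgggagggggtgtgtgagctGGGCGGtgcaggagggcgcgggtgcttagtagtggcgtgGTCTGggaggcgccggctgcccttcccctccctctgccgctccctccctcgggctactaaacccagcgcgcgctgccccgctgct

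Motifs were searched on both strands from 250 bases before to 50 bases after the start, and no motif overlapped another that was capitalized. CAGAC was present in the promoters of 5 of the 8 genes and in 49.7% of all 27025 promoters. Ltbp2 held it at -205, -176 and 29, Tgfbi at -239 and -85, Ltbp3 at -58 and -1, Ltbp1 at -64 and Tgfbr2 at -160, while the windows of Ltbp4, Tgfbr1 and Smad3 held none. For Ltbp4 3 starts are listed, and for Ltbp1 and Tgfbr1 2 each, and only the window of the start used was searched. GGGCGG was present in 5 of the 8 (2 copies each in Ltbp2, Tgfbr1, Smad3 and Tgfbi, and 3 in Ltbp4) and in 35.9% of all promoters. The longer palindrome GTCTAGAC and the TATA box letters TATAAA were found in none of the 8 windows, against 0.211% and 14.2% of all promoters. TGACTCA, the AP-1 site, was found in Ltbp3 alone, at -6, and in 5.17% of all promoters. Neither CAGAC nor GGGCGG was kept to the genes of one direction: each was found in genes higher in the limbus, and each in Tgfbi, which was higher in the cornea. The window of Tgfbr1 had 74.7% G and C and 34 CpG pairs, and that of Ltbp3 48% and 3, beside medians of 52.7% and 7 over all promoters. A match of letters is a description of the window and does not show binding.

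All 4 latent TGF-β binding proteins had more reads in the limbus, and their sum was 3.72-fold higher there. Together they had 2321 corneal and 8069 limbal reads (log2 ratio 1.89, 95% CI 1.83 to 1.96). Ltbp2 stood furthest from equal levels, Ltbp4 was the most abundant of the family per length in both libraries, and Ltbp3 differed least.

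Ltbp2 encodes a fibrillin-associated protein of elastic and ciliary zonule fibers that, unlike its relatives, does not bind latent TGF-β. It had 2 corneal and 316 limbal reads, or 1.93 and 327 normalized reads. The log2 ratio was 7.40 (95% CI 5.53 to 10.45), or 169-fold with an interval from 46.4-fold to 1400-fold. That ratio lay above those of 99.9% of all genes tested. The genes tested leave out Ltbp2 itself and every other gene with 3 or fewer reads in a library. Some genes left out had higher ratios, such as Eln with 3 corneal and 924 limbal reads (log2 ratio 8.36). Ltbp2 had the fewest corneal reads of the 10 genes, and its fold rests on those 2 reads. Its promoter, the first of those printed, was the one with the most CAGAC copies. The gene lies on chromosome 12 from 84783212 to 84876532 in GRCm38, and its exons share 764 bases with the antisense gene D030025P21Rik, which had 0 corneal and 2 limbal reads.

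Ltbp4 encodes the binding protein of elastic fiber assembly, which carries mainly TGF-β1. It had 1038 corneal and 4714 limbal reads, or 1004 and 4873 normalized reads. Its log2 ratio of 2.28 (95% CI 2.18 to 2.38) made it 4.85-fold higher in the limbus. Per kilobase of exon it stood at 155 (cornea) and 754 (limbus) normalized reads, and in the limbus only Tgfbi of the 10 genes was higher. The gene lies on chromosome 7 from 27305136 to 27337692, and no annotated gene overlaps it.

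Ltbp1, the most studied carrier of latent TGF-β, had 353 corneal and 1015 limbal reads. The log2 ratio of 1.62 (95% CI 1.44 to 1.80) corresponds to 3.07-fold more in the limbus. Ltbp3, a carrier with known roles in bone and tooth development, had 928 corneal and 2024 limbal reads. Its log2 ratio was 1.22 (95% CI 1.11 to 1.33), or 2.33-fold. Neither library had few reads for these 2 genes, and both intervals lie above a 2-fold difference. Ltbp1 lies on chromosome 17 from 75005568 to 75392512 and Ltbp3 on chromosome 19 from 5740904 to 5758532.

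The make-up of the family can be read within a library, where the scaling between libraries plays no part. Per kilobase of exon, Ltbp4 made up 54.2% of the family in the cornea and 67.2% in the limbus. Ltbp3 made up 34.5% and 20.5%, Ltbp1 11.1% and 8.74%, and Ltbp2 0.0825% and 3.56%. The ratio of Ltbp4 to Ltbp3 per kilobase was 1.57 (95% CI 1.44 to 1.72) in the cornea and 3.27 (95% CI 3.10 to 3.44) in the limbus. The ratio of Ltbp1 to Ltbp3 was 0.323 (95% CI 0.285 to 0.365) in the cornea and 0.425 (95% CI 0.394 to 0.459) in the limbus. Ltbp4 and Ltbp2 thus took larger shares of the family in the limbus, and Ltbp3 and Ltbp1 smaller ones.

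**Figure D2:**
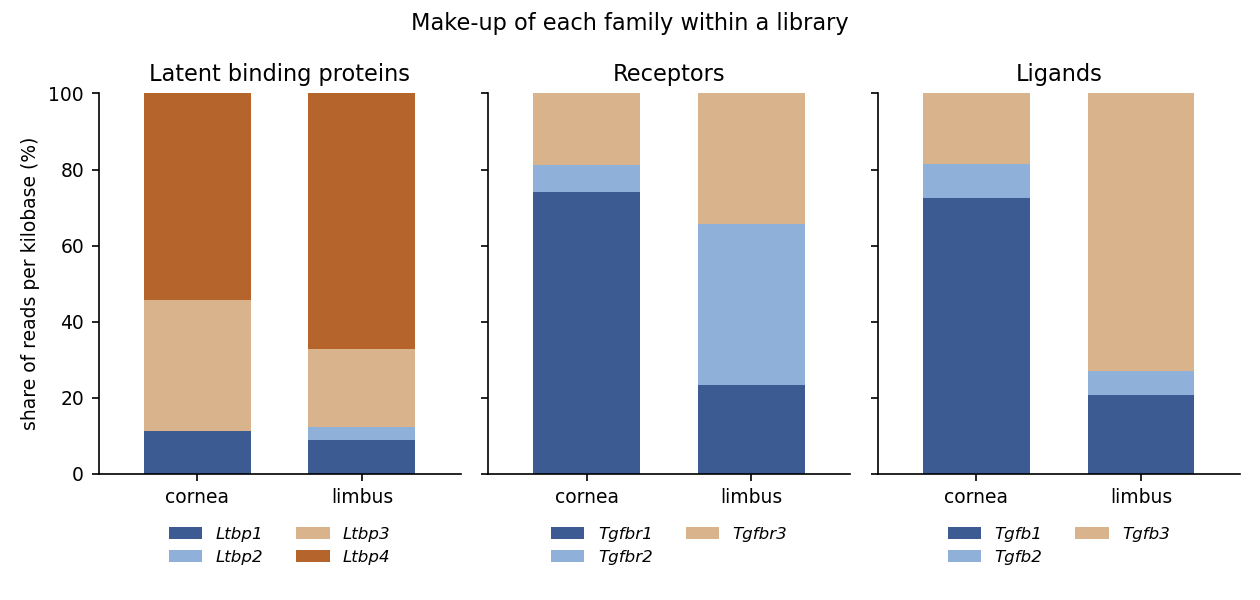
Share of each family's reads per kilobase of exon (%) in the cornea and limbus libraries, for the latent binding proteins, the receptors and the 3 ligands; each bar is 1 library and sums to 100%. Ltbp4 is the largest piece of its family in both libraries, Tgfbr1 is 74.1% (cornea) and 23.4% (limbus) of the receptors, and Tgfb3 is 18.5% and 73.1% of the ligands.

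The 3 receptors went different ways. Tgfbr1 was higher in the cornea, Tgfbr2 was higher in the limbus, and Tgfbr3 differed little. Tgfbr1, the kinase that phosphorylates SMAD2 and SMAD3, had 4975 corneal and 920 limbal reads, or 4813 and 951 normalized reads. It was 5.06-fold higher in the cornea (95% CI 4.72 to 5.43), with a log2 ratio of -2.34 (95% CI -2.44 to -2.24). Only 0.714% of all genes tested had a lower log2 ratio. The gene lies on chromosome 4 from 47353222 to 47414931, with no overlapping gene in the annotation, and its promoter was the richest in CpG pairs of the 8 matched.

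Tgfbr2, the receptor that binds the ligand first, had 599 corneal and 2085 limbal reads, or 579 and 2155 normalized reads. It was 3.72-fold higher in the limbus (log2 ratio 1.90, 95% CI 1.76 to 2.03). Tgfbr3, the co-receptor, had 1266 corneal and 1351 limbal reads. Its log2 ratio of 0.19 (95% CI 0.08 to 0.30) is 1.14-fold, beyond counting error but smaller than the 0.21 by which the choice of scaling moves every ratio. Tgfbr2 lies on chromosome 9 from 116084293 to 116175360. Tgfbr3 lies on chromosome 5 from 107106570 to 107289629, and 297 of its exon bases are shared with a provisional same-strand gene model, Gm43422.

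The order of the receptors turned over between the tissues. Per kilobase of exon, the cornea had 737 normalized reads of Tgfbr1, 187 of Tgfbr3 and 70.8 of Tgfbr2, and none of these 3 intervals overlap. The limbus had 263 of Tgfbr2, 213 of Tgfbr3 and 146 of Tgfbr1, again with no overlap of the intervals. The ratio of Tgfbr1 to Tgfbr2 per kilobase was 10.4 (95% CI 9.56 to 11.3) in the cornea and 0.553 (95% CI 0.511 to 0.598) in the limbus, a quantity that no scaling between the libraries can move. The receptors summed to 6840 corneal and 4356 limbal reads (log2 ratio -0.56, 95% CI -0.61 to -0.50), and Tgfbr1 was 74.1% of the sum per kilobase in the cornea and 23.4% in the limbus.

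Smad3 and Smad7 lay on opposite sides, both less than 2-fold from equal. Smad3, the receptor-activated SMAD that binds DNA, had 2070 corneal and 1335 limbal reads, 1.45-fold more in the cornea, with a log2 ratio of -0.54 (95% CI -0.64 to -0.44). Of all genes tested, 23.6% had a lower log2 ratio. Smad7, the inhibitor, had 151 corneal and 199 limbal reads (log2 ratio 0.49, 95% CI 0.18 to 0.81) in the direction of the limbus. It had the widest interval of the 9 tested genes. The ratio of Smad3 to Smad7 per kilobase was 11.2 (95% CI 9.48 to 13.3) in the cornea and 5.47 (95% CI 4.71 to 6.38) in the limbus. Smad3 lies on chromosome 9 from 63646767 to 63757994 and Smad7 on chromosome 18 from 75367529 to 75395935.

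Smad3 lay on the same side as its partner Smad2, by nearly the same ratio. The ratio of Smad3 to Smad2 per kilobase was 2.06 (95% CI 1.93 to 2.20) in the cornea and 2.05 (95% CI 1.89 to 2.23) in the limbus, and the intervals overlap almost wholly. Smad2 itself had 1590 corneal and 1030 limbal reads (log2 ratio -0.53, 95% CI -0.65 to -0.42).

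Tgfbi encodes a secreted adhesion protein of the corneal stroma and epithelium, named for its induction by TGF-β and altered in several human corneal dystrophies. It was the most abundant of the 10 genes in both libraries, and its mean normalized signal exceeded that of 99.4% of all genes tested. It had 36746 corneal and 16495 limbal reads, or 35547 and 17052 normalized reads. It was 2.08-fold higher in the cornea (95% CI 2.05 to 2.12), a log2 ratio of -1.06 (95% CI -1.09 to -1.03). Scaled to total reads, the log2 ratio was -0.85 and thus under 2-fold. The gene lies on chromosome 13 from 56609523 to 56639562, with no overlapping gene.

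**Figure D3:**
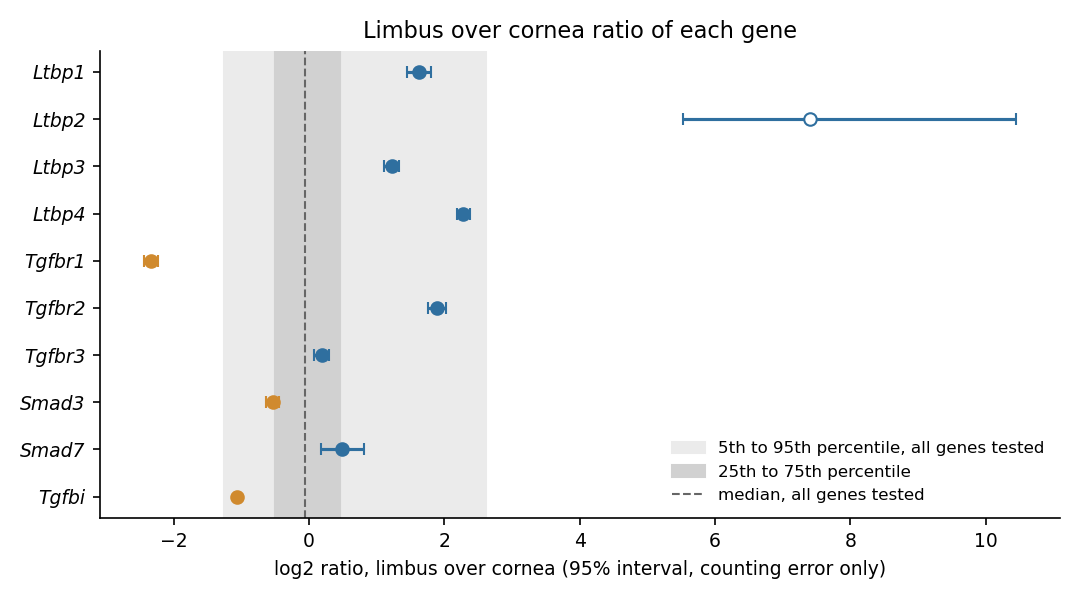
Log2 ratio of normalized reads, limbus over cornea, for each of the 10 genes, with exact 95% intervals (counting error only); blue is higher in the limbus, orange higher in the cornea, and the open circle is Ltbp2, which had 2 cornea reads. Grey bands give the 5th to 95th and 25th to 75th percentiles of all genes tested (-1.26 to 2.62 and -0.51 to 0.46): Tgfbr1 at -2.34 lies below the wider band, Ltbp2 at 7.40 above it, and Tgfbr3 at 0.19 within the narrower one. Ltbp2 is not among the genes tested.

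The ranks of the genes per kilobase of exon show how the tissues differ as wholes. In the cornea the order ran from Tgfbi at 9426 normalized reads through Tgfbr1 at 737, Smad3 at 361, Tgfbr3 at 187, Ltbp4 at 155, Ltbp3 at 99.0, Tgfbr2 at 70.8, Smad7 at 32.3 and Ltbp1 at 31.9 to Ltbp2 at 0.236. Of the 9 pairs of neighbors in that order, 8 differed beyond counting error by the interval of their ratio. The exception was Smad7 and Ltbp1, with a ratio of 1.01 (95% CI 0.830 to 1.23). In the limbus the order ran from Tgfbi at 4522 through Ltbp4 at 754, Tgfbr2 at 263, Smad3 at 249, Ltbp3 at 231, Tgfbr3 at 213, Tgfbr1 at 146, Ltbp1 at 98.1 and Smad7 at 45.5 to Ltbp2 at 39.9. Of the 9 limbal pairs of neighbors, 7 differed beyond counting error, among them Smad3 and Ltbp3 (ratio 1.08, 95% CI 1.01 to 1.16) and Ltbp3 and Tgfbr3 (ratio 1.08, 95% CI 1.01 to 1.16) only narrowly. No difference beyond counting error was found between Tgfbr2 and Smad3 (ratio 1.06, 95% CI 0.987 to 1.13) or between Smad7 and Ltbp2 (ratio 1.14, 95% CI 0.95 to 1.37). Lengths are the merged exons of all annotated transcripts, so a gene that uses a short transcript is set too low.

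Around the 10 genes, 54 other genes of the pathway were compared from lists by role. Of the 52 with over 3 reads in each library, beyond counting error 34 were limbal, 14 corneal and 4 neither, against 33.2% limbal and 40.6% corneal of all genes tested. At least 2-fold differences numbered 23 toward the limbus and 0 toward the cornea (15.5% and 8.99% of all genes tested), where Tgfbr1 and Tgfbi stand among the 10 genes. The median log2 ratio of the 52 was 0.42, beside -0.05 over all genes tested. Scaled to total reads, 38 were limbal and 10 corneal, against 45.1% and 29.7% of all genes tested, with a median of 0.63 beside 0.15.

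All 3 ligands were higher in the limbus, the direction of 33.2% of all genes tested. The ligands summed to 584 corneal and 1901 limbal reads. Tgfb1 had 445 corneal and 508 limbal reads (log2 ratio 0.29, 95% CI 0.10 to 0.47). Tgfb2 had 63 corneal and 181 limbal reads (log2 ratio 1.62, 95% CI 1.20 to 2.06). Tgfb3 had 76 corneal and 1212 limbal reads (log2 ratio 4.09, 95% CI 3.76 to 4.44) and most of the limbal reads of the sum. The ligand that was most abundant per length differed between the libraries: the ratio of Tgfb3 to Tgfb1 per kilobase was 0.255 (95% CI 0.197 to 0.325) in the cornea and 3.56 (95% CI 3.20 to 3.95) in the limbus.

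Of the 5 other genes of latency and anchoring that were in the table, 4 were higher in the limbus, each at least 2-fold. Among all genes tested, 33.2% were limbal and 15.5% at least 2-fold higher in the limbus. Lrrc32, which encodes the cell surface anchor GARP of latent TGF-β, had 35 corneal and 208 limbal reads (log2 ratio 2.67, 95% CI 2.15 to 3.23). The exception was Fn1, fibronectin, to which LTBP1 binds, with 7969 corneal and 6325 limbal reads (log2 ratio -0.24, 95% CI -0.29 to -0.19). Fn1, the gene of this list with the most reads, did not differ beyond counting error when scaled to total reads.

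Of the 9 activators tested, 5 were higher in the limbus, 2 in the cornea and 2 in neither, with a median log2 ratio of 0.32. Among all genes tested, 33.2% were limbal and 40.6% corneal. With total reads the activator counts were 7, 2 and 0, beside 45.1% limbal and 29.7% corneal of all genes tested. Thbs1, which encodes thrombospondin-1, had 968 corneal and 3129 limbal reads (log2 ratio 1.79, 95% CI 1.68 to 1.89). Itgav, the αv chain of the integrins that pull on latent TGF-β, had 2428 corneal and 1652 limbal reads (log2 ratio -0.46, 95% CI -0.55 to -0.37). Itgb1, a β chain that can pair with αv, had the most reads of the list, 5303 corneal and 3903 limbal (log2 ratio -0.35, 95% CI -0.41 to -0.29).

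The 5 other receptors tested split, with 2 higher in the limbus, 2 in the cornea and 1 in neither. Among all genes tested, 33.2% were limbal and 40.6% corneal. Acvrl1, the ALK1 receptor of vessel endothelium, had 34 corneal and 418 limbal reads (log2 ratio 3.72, 95% CI 3.21 to 4.27). Acvr2a, an activin receptor, had 866 corneal and 458 limbal reads (log2 ratio -0.82, 95% CI -0.99 to -0.66). Acvr1b, a receptor kinase of activin that also acts on SMAD2 and SMAD3, had 1824 corneal and 1189 limbal reads (log2 ratio -0.52, 95% CI -0.63 to -0.42). No kinase of the list was as far to the corneal side as Tgfbr1.

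Of the 5 signal transducers, 4 were higher in the cornea as Smad3 was, the direction of 40.6% of all genes tested, with a median log2 ratio of -0.53 and none at least 2-fold. Zfyve9, which encodes the SMAD anchor SARA, had 586 corneal and 328 limbal reads (log2 ratio -0.74, 95% CI -0.94 to -0.54). Map3k7, the kinase TAK1, had 2095 corneal and 1235 limbal reads (log2 ratio -0.67, 95% CI -0.77 to -0.56). Tab1, its activator, was the exception with 638 corneal and 773 limbal reads (log2 ratio 0.37, 95% CI 0.22 to 0.53).

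Of the 11 inhibitors, 8 were higher in the limbus as Smad7 was and 3 in the cornea, with a median log2 ratio of 0.28. The shares over all genes tested were 33.2% limbal and 40.6% corneal. Fst, follistatin, which binds activin, had 31 corneal and 134 limbal reads (log2 ratio 2.21, 95% CI 1.64 to 2.82). Smurf2, the ubiquitin ligase that SMAD7 brings to the receptors, had 1472 corneal and 943 limbal reads (log2 ratio -0.55, 95% CI -0.67 to -0.43). Dcn, decorin, a stromal proteoglycan that binds TGF-β, had the most reads, 30813 corneal and 44833 limbal (log2 ratio 0.64, 95% CI 0.62 to 0.66).

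Of the 14 target genes in the table, 11 were higher in the limbus, 2 in the cornea and 1 in neither, and 9 were at least 2-fold higher in the limbus. Among all genes tested, 33.2% were limbal, 40.6% corneal and 15.5% at least 2-fold higher in the limbus. The median log2 ratio of the target genes, 1.90, lay on the other side of 0 from that of Tgfbi. Col3a1, a fibrillar collagen, had 106 corneal and 3124 limbal reads (log2 ratio 4.98, 95% CI 4.70 to 5.27). Col1a1, the main collagen of stroma and sclera, had the most reads, 13776 corneal and 30674 limbal (log2 ratio 1.25, 95% CI 1.22 to 1.28). Snai2, a repressor of epithelial genes, was the lowest with 483 corneal and 372 limbal reads (log2 ratio -0.28, 95% CI -0.48 to -0.08). Scaled to total reads, 13 of the 14 were limbal and 0 corneal, against 45.1% and 29.7% of all genes tested.

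**Figure D4:**
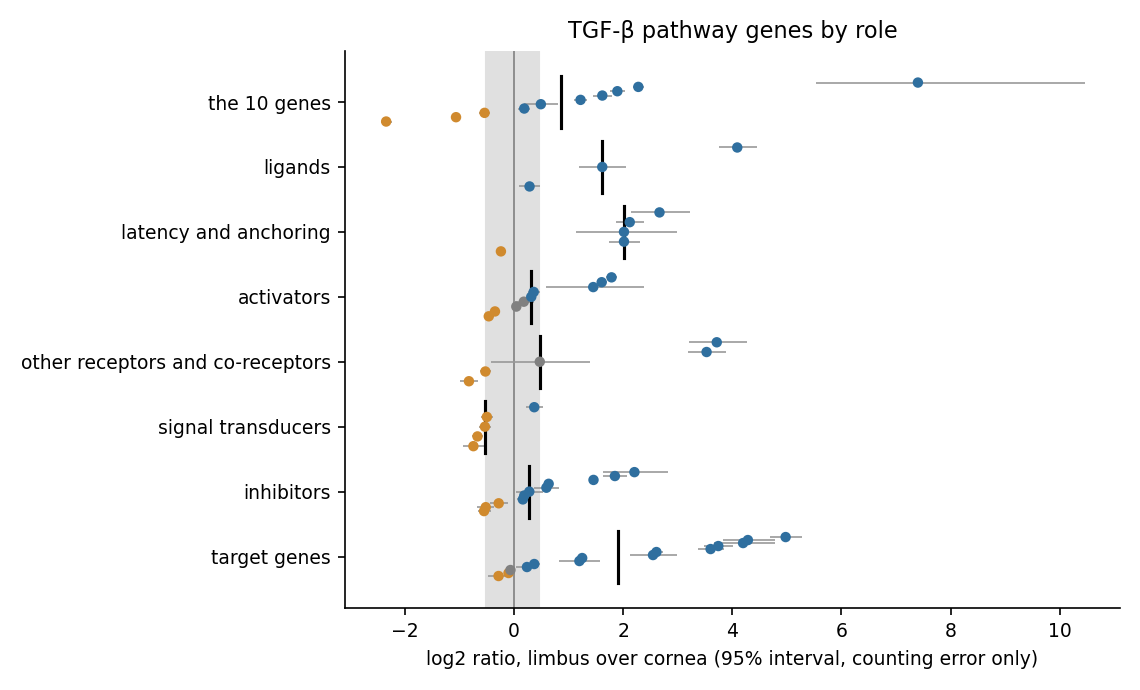
Log2 ratio, limbus over cornea, of the 10 genes and of the tested genes of each pathway list (1 point per gene, bars are exact 95% intervals for counting error only); blue is higher in the limbus, orange higher in the cornea and grey neither, the black mark is the median of each row and the grey band the 25th to 75th percentile of all genes tested. The ligands, the latency genes and the target genes have medians of 1.62, 2.02 and 1.90, and the signal transducers one of -0.53.

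The 2 pools differed in more than these genes. Beside the marker counts below, 33.2% of all genes tested were limbal and 40.6% corneal. Of the corneal epithelial markers, 4 of 5 were higher in the cornea, and their summed level was 2332770 (cornea) and 976123 (limbus) normalized reads. Of the 5 keratocyte markers, 2 were higher in the limbus, 2 in the cornea and 1 in neither. Their sums of 57033 and 59548 rest mostly on Dcn, while Kera (12119 corneal and 1423 limbal reads) and Aldh1a1 (7369 and 1548) were higher in the cornea and Ptgds (186 and 1950) in the limbus. All tested markers of conjunctival epithelium (4 of 4), skeletal muscle (5 of 5), blood vessel endothelium (3 of 3), smooth muscle and pericytes (4 of 4), melanocytes (5 of 5), trabecular meshwork (2 of 2), Schwann cells (3 of 3), macrophages (4 of 4), lymphatic endothelium (3 of 3) and corneal endothelium (5 of 5) were higher in the limbus, as were 4 of 5 of scleral and other fibroblasts. Summed levels in the cornea and the limbus were 37861 and 231668 for conjunctival epithelium, 77.4 and 9975 for skeletal muscle, 192 and 2150 for blood vessel endothelium, 318 and 2445 for smooth muscle and pericytes, 306 and 1644 for melanocytes, and 659 and 7301 for trabecular meshwork. They were 4247 and 6958 for Schwann cells, 723 and 2301 for macrophages, 2247 and 3410 for lymphatic endothelium, 14484 and 22518 for corneal endothelium, and 28125 and 59645 for the fibroblast list. None of the listed markers found in the table was at 0 reads in either library. Muc5ac, the mucin of conjunctival goblet cells, had 1 read in each library. Col1a1 and Dcn stand both in a pathway list and in a cell type list, as does Acta2. The part of these cell types in the differences of the 10 genes was not tested.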

How the data were processed

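Stranded total RNA libraries of pooled limbal rims and corneal buttons were sequenced on an Illumina NextSeq. The authors used CLC Genomics Workbench to trim adaptors and map to the mouse build GRCm38 (mm10), and normalized by the trimmed mean of M-values. Whether counting used strand is not given in the sources used here. The deposited table holds 1 mean normalized signal per gene. It also holds the authors' own comparison, a shrunken log2 fold change, its error, and p-values before and after adjustment. Its column names are those of DESeq output, a program that the authors' methods do not name. A trimmed mean of M-values computed here differed from the size factors behind the deposited means by 0.02 in log2 ratio. The p-values were not used, and the fold change and its error served only to find the reads behind each mean.

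Means move in steps of whole reads, 109 cornea reads being worth 102 limbus reads. Of 17442 named genes with a mean above 0, 6143 allow 1 pair of read numbers. For the other 11299, the pair was taken that came nearest to the deposited fold change and error under a negative binomial model with a normal prior, to within 0.001 in sum for 11284. For the 10 genes the miss was at most 9.13e-05, and the next best pair missed by at least 116 times as much. The method was tested on data simulated from the same model, which cannot show whether that model fits the deposited values. Rows with no gene name (17484 of 40904) were left out.

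Genes with over 3 reads in each library were tested for counting error by exact Clopper-Pearson intervals (95%). The 10 genes and all lists were chosen with earlier results of these data known. The 10 genes, all genes of a list of 3, and of longer pathway lists the genes with the highest ratio, the lowest ratio and the most reads are named. Smad2, Krt12, Kera, Aldh1a1, Ptgds, Muc5ac, Acta2 and overlapping genes were picked with their values in view. Positions and exon lengths are from GENCODE M21. The values of 1 gene are not reported here. The accession beside each gene was not used, since of 18556 found in RefSeq only 2 belong to the gene named. Alternatives were 3 scalings, a pseudocount, 2 filters on the mean, no filter and the second best pair of reads. Python 3.11.15, numpy 2.4.6, scipy 1.17.1, pandas 2.3.3 and matplotlib 3.10.9 were used.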

Additional observations from a re-analysis of the deposited data

How the results depend on the processing

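The 8 alternatives gave 80 values for the log2 ratios of the 10 genes, of which 62 moved by less than the counting interval, 17 moved by more and 1 changed sign. The filters on the mean cannot change the ratio of a gene, and the run with no filter repeats the values of the pseudocount run. The 62 therefore include values that could not have moved, and their number does not measure stability. The value that changed sign was that of Tgfbr3, at -0.043 with the second best pair of reads in place of 0.19. The same alternative moved Ltbp2 from 7.40 to 1.04 and Smad7 from 0.49 to 2.94. Scaling to total reads raised every log2 ratio by 0.21, centring on the median of all genes tested by 0.05 and a trimmed mean of M-values by 0.02. With total reads, the genes at least 2-fold higher in the cornea went from 2 to 1, because Tgfbi moved to -0.85. Over all genes tested, the share at least 2-fold higher in the cornea went from 8.99% to 5.63%. With the second best pair that share was 23.2%, while the count among the 10 genes stayed at 2. The genes at least 2-fold higher in the limbus numbered 4 to 6, with 5 under either filter on the mean and with no filter, and 6 with the second best pair. The share of all genes at least 2-fold higher in the limbus moved as well, from 15.5% with the size factors. It was 18.0% and 11.9% with the filters at 10 and 50, 25.3% with no filter and 20.5% with the second best pair. The median log2 ratio of the genes moved from 0.49 to 0.86 with either filter on the mean (at least 10 or at least 50) and to 0.86 with no filter and a pseudocount of 1 normalized read, which bring Ltbp2 in, and to 1.26 with the second best pair. The count of 3 genes higher in the cornea beyond counting error was found under every alternative that gives an interval, and the count for the limbus was 6 or 7. With a pseudocount there is no interval, so these counts were not run for it. Over all genes tested, 33.2% were limbal and 40.6% corneal beyond counting error with the size factors. With total reads these shares were 45.1% and 29.7%. Leaving out a library was not possible with 1 per tissue. No paired analysis was possible because the table holds no value for the numbered samples. Depth limits Ltbp2, with 2 corneal reads, and Smad7, with 151 corneal and 199 limbal reads. The counts over the pathway lists under other settings were added after the data were seen.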
